A study of Mus musculus with 2 samples.

Results

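CD antigen genes of mouse erythroleukemia (MEL) cells were taken as the protein-coding genes whose symbol begins with Cd and a digit, apart from Cd24a, Cd36, Cd44, Cd47, Cd2ap and Cd2bp2. This rule uses names alone and gave 93 of the 21474 protein-coding genes in the tables. MEL is an immortalized mouse cell line of erythroid leukemia origin. All cells here had been treated with 2% dimethyl sulfoxide (DMSO) for 5 days, and their polyA RNA was sequenced as single-end reads in 2 libraries, labelled biological replicates 1 and 2. Both libraries carry one cell sample identifier in the labels, so the spread between them may be technical. There was 1 group and no untreated sample, so the values are levels in treated cells and not responses to DMSO, and no test between conditions was made.

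The CD (cluster of differentiation) numbers name cell surface molecules recognised by shared sets of antibodies, and they are used to tell blood cell types apart. The genes do not form a single family. They encode tetraspanins that organise membrane microdomains, adhesion molecules, complement regulators, subunits of the T and B cell antigen receptors, co-stimulatory ligands, and inhibitory or activating receptors of myeloid cells. DMSO is a classical inducer of erythroid maturation in MEL cells. A symbol does not always mean a surface antigen: Cd3eap encodes a subunit of RNA polymerase I, and Cd5l encodes a secreted protein of macrophages. Levels below are RNA levels, and no protein was measured.

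Of the 93 genes, 23 (24.7%) reached 1 TPM (a level scaled to transcript length and library size) in both libraries. The share was 45.5% over all protein-coding genes. A further 9 genes reached 1 TPM in 1 library only, 30 had reads but stayed below 1 TPM in both, and 31 (33.3%) had 0 estimated reads in both. The share of all protein-coding genes at 0 in both was 29.5%. The median level, as the mean of both libraries, was 0.1 TPM for the CD genes and 0.6 TPM for all protein-coding genes. Among the genes at 1 TPM or more in both libraries the medians were 8.81 and 15.5 TPM.

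Most of the CD signal came from a few genes. All 93 together summed to 301.6 TPM in replicate 1 and 393 TPM in replicate 2, which is 0.0302% and 0.0393% of all TPM. The 5 genes of highest mean level (Cd81, Cd82, Cd164, Cd55 and Cd48) held 60.6% of that sum in replicate 1 and 55.9% in replicate 2. Depth was 26149725 estimated reads in replicate 1 and 14149299 in replicate 2. A gene at 0 is limited by 3 counts, or 0.115 and 0.212 CPM (counts scaled to library size) in the respective libraries. For the 31 genes at 0 this allows at most 0.0363 to 0.205 TPM in replicate 1 and 0.0642 to 0.362 TPM in replicate 2, depending on gene length. Such limits cover counting error only and rest on the estimated reads. The deposited posterior means, another estimate of the same level, ranged over these 31 genes from 0.01 to 0.82 TPM in replicate 1 and from 0.02 to 1.4 TPM in replicate 2. They lay above the limit in both libraries for 7 of the 31 (Cd6, Cd200, Cd200r3, Cd164l2, Cd209f, Cd300lb and Cd209b) and reached 1 TPM in both for 0.

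**Figure D1:**
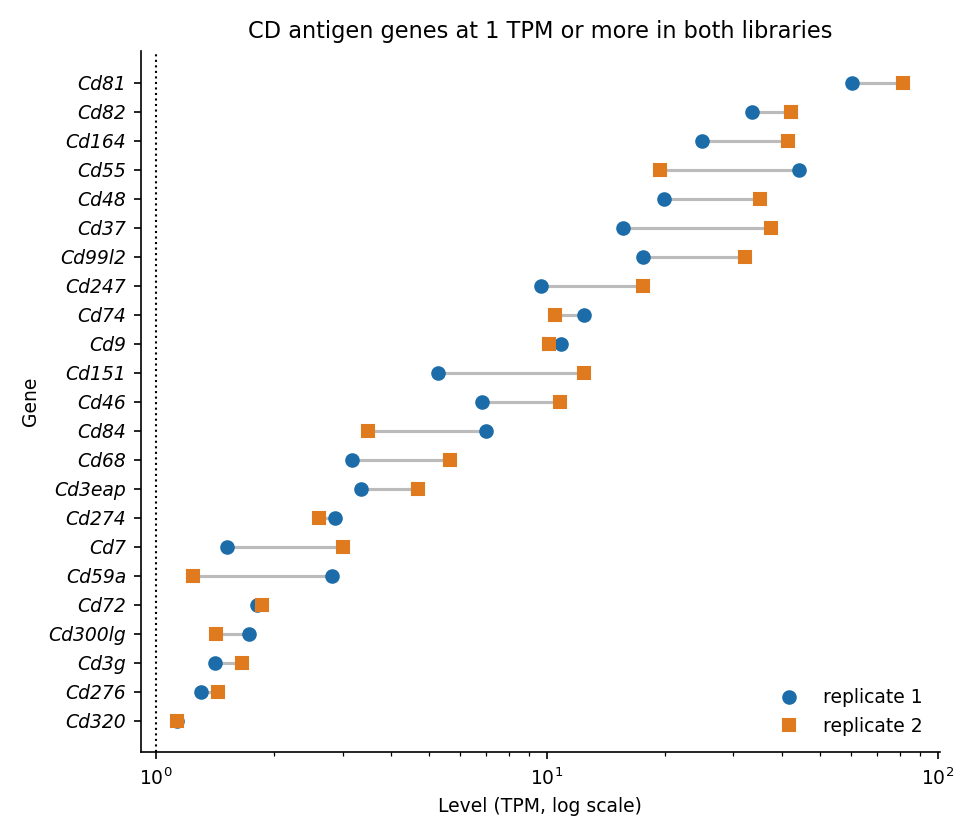
Level of each CD gene with at least 1 TPM in both libraries, in TPM on a log axis, with replicate 1 as circles, replicate 2 as squares, a grey line joining them and a dotted line at 1 TPM. Cd81 is highest at 60.2 and 81.6 TPM, and Cd55 is the widest pair among the 5 highest genes, at 44.1 and 19.5 TPM.

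The erythroid identity on the label was checked with 11 defining genes outside the CD set, among them Gata1, Klf1, Epor, Alas2 and the globin genes Hba-a1 and Hbb-bs. All 11 exceeded 1 TPM in both libraries, and the lowest of their mean levels was 85.6 TPM. That gene was Epor, at 34.7 and 136 TPM. Cd81, the highest CD gene, averaged 70.9 ± 15.2 TPM (SD, n = 2) and ranked 1244 among protein-coding genes. In replicate 1 Cd81 was above Epor and also above Klf1 (55.4 and 125 TPM), and in replicate 2 it was below both.

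Promoter windows differed in CpG content between CD genes of different level. The RefSeq table for assembly GRCm38.p6 holds a window for 68 of the 93 genes, 250 bases before to 50 bases after the annotated start. The windows of 4 genes are printed 5′ to 3′ in gene orientation, with every CpG in capitals. They show the highest gene (Cd81, chr7:143052500-143052799, plus strand) and the gene at 0 with the most CpG, tied with Cd200 (Cd164l2, chr4:133220559-133220858, plus strand). They also show an expressed antigen with few CpG (Cd48, chr1:171681742-171682041, plus strand) and a silent T cell antigen (Cd8a, chr6:71373177-71373476, plus strand). The last pair was picked after the values were seen. The Cd164l2 window lies inside the gene as the Ensembl annotation draws it, because RefSeq places the start elsewhere. Other windows do so too, among them those of Cd63, Cd33, Cd300c, Cd209c, Cd200r4 and Cd80, which were not expressed in both libraries. Those of the expressed genes Cd37 and Cd276 also lie inside. The CpG counts below thus rest partly on windows away from the Ensembl start.

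Cd81: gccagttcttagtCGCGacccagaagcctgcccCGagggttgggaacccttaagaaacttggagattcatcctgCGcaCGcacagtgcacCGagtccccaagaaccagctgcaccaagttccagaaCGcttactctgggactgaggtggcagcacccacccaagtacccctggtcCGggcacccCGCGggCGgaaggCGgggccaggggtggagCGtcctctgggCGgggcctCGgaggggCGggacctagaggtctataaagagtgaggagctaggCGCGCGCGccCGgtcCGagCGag
Cd164l2: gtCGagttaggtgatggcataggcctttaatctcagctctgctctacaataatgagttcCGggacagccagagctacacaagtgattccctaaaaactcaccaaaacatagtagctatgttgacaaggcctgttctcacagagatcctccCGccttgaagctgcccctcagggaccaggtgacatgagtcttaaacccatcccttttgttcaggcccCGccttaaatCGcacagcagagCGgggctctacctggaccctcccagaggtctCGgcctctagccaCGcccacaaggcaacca
Cd48: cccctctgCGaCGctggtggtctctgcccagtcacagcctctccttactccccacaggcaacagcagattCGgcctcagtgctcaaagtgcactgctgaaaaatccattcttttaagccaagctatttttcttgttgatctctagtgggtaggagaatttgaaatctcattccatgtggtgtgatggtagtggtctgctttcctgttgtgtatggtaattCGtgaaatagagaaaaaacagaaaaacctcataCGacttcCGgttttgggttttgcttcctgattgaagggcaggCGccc
Cd8a: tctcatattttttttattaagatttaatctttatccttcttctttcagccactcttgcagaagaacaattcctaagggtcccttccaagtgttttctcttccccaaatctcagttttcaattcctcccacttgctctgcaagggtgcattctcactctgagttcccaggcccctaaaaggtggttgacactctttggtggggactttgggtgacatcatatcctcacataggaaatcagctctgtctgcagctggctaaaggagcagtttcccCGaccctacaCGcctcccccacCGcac

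The Cd81 window holds 23 CpG, and those of Cd164l2, Cd48 and Cd8a hold 8, 7 and 3. The median was 12.5 CpG for the 20 windows of genes at 1 TPM or more in both libraries, 4 for the 23 windows of genes in between and 3 for the 25 windows of genes at 0 counts. At least 10 CpG were present in 11 of the 20 (55%) windows of expressed genes, in 0 of the 23 in between and in 0 of the 25 at 0 counts. The value of 10 was chosen after the counts were seen. Over all protein-coding genes the shares with at least 10 CpG were 87.6%, 48.8% and 21.2% in the same 3 classes, and 59.7% of all 16316 windows passed. These shares are a description without a test, and the CD genes are among the protein-coding genes counted. Many of the windows at 0 counts belong to neighbouring genes of the Cd300 and Cd209 families, so they are not all independent.

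Expressed CD genes were not all of the CpG-rich kind. Cd276, a B7-family ligand of the immunoglobulin superfamily, had the most CpG (39) at a level of only 1.30 and 1.44 TPM. Cd164, a sialomucin, had 36. By contrast Cd84, Cd247 and Cd59a held 3, 3 and 1 CpG and were expressed, and Cd48 reached 20.0 and 35.1 TPM from a window with 7. The GATA words AGATAA and TGATAA, read on both strands, were found in 10% of expressed, 13.0% of intermediate and 40% of silent CD windows. The corresponding shares of protein-coding windows were 9.23%, 15.2% and 26.4%, and 15.5% over all windows. CACCC, read on both strands, was present in 65%, 65.2% and 72% of the CD windows, against 62.3%, 65.0% and 49.7% of protein-coding windows and 59.4% of all windows. A match is a run of letters and not a shown binding site.

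**Figure D2:**
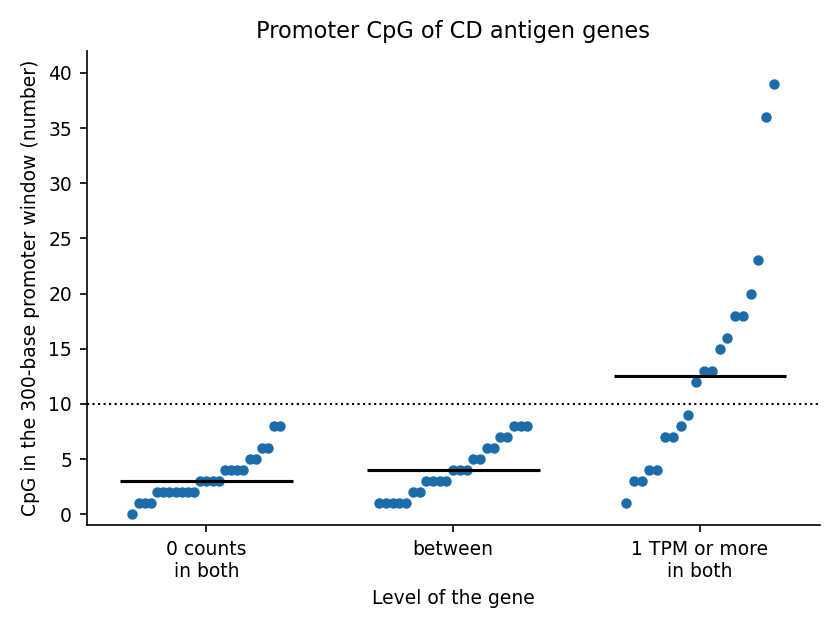
Number of CpG in the 300-base promoter window of 68 CD genes, 1 point per gene, by level of the gene, with black lines at the medians (3, 4 and 12.5 CpG) and a dotted line at 10 CpG. Windows with 10 or more CpG occur here in expressed genes alone, up to 39 in Cd276.

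Tetraspanins, membrane proteins with 4 transmembrane segments that gather integrins and receptors into microdomains, held the largest share of CD signal: 41.7% in replicate 1 and 46.8% in replicate 2. Of 7 genes, 5 passed 1 TPM in both libraries. Cd81, part of the B cell co-receptor in lymphocytes and broadly expressed elsewhere, was at 60.2 and 81.6 TPM in replicates 1 and 2. Cd82 was at 33.4 and 42.1 TPM, below Cd81 in both libraries. Cd37, known from mature B cells, was at 15.7 and 37.5 TPM, so its replicates differed by more than its lower value. Cd9 was at 10.9 and 10.1 TPM, one of the most even pairs of the set. Cd151, a partner of laminin-binding integrins, was at 5.26 and 12.4 TPM. The leukocyte tetraspanin Cd53 was at 0.22 and 0 TPM.

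Cd63, the tetraspanin of late endosomes and exosomes, had 0 estimated reads in both libraries, with upper limits of 0.142 and 0.251 TPM. Its processed pseudogene Cd63-ps, 98.0% identical over 858 aligned bases, had 0 estimated reads as well. No source used here says how reads that fit both copies were placed, so Cd63 is reported as listed at 0.

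Complement regulators protect cells from their own complement, and 3 of 5 were expressed in both libraries. Cd55, decay accelerating factor, was at 44.1 and 19.5 TPM from 2429 and 597.84 estimated reads. Cd46, membrane cofactor protein, was at 6.83 and 10.8 TPM. Cd59a, which blocks the membrane attack complex, was at 2.81 and 1.24 TPM, and its neighbour Cd59b was at 0.11 and 0 TPM. Cd55 and Cd59a were higher in replicate 1 whereas Cd46 was higher in replicate 2. Cd55b, a paralog next to Cd55 on chromosome 1 and 98.4% identical to it over 379 aligned bases, had 0 reads in replicate 1 and 23.16 in replicate 2 (0 and 1.80 TPM). The split of reads between Cd55 and Cd55b is uncertain for that reason.

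Sialomucins and related antigens of progenitors and stroma included 2 expressed genes of 9. Cd164, endolyn, was at 25.0 and 41.4 TPM. Cd99l2, an adhesion molecule used in leukocyte passage through vessel walls, was at 17.6 and 32.2 TPM. Both were higher in replicate 2 on the TPM scale. Cd248, endosialin of stromal cells, was at 0.69 and 1.63 TPM, and Cd52, a short lymphocyte glycoprotein, at 1.76 and 0.16 TPM. Each of these passed 1 TPM in a different library. Cd34, the marker of hematopoietic stem cells and endothelium, was at 0.05 and 0.02 TPM from 3 and 1 reads. Cd93 was at 0.01 TPM in both, Cd38 at 0.08 and 0.02 TPM, and Cd109 at 0.11 and 0 TPM. Cd164l2 had 0 reads.

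The CD2 and SLAM family of adhesion and signalling receptors had 2 of 4 genes expressed. Cd48, a lipid-anchored ligand of CD2 and CD244, was at 20.0 and 35.1 TPM. Cd84 was at 6.97 and 3.49 TPM. Their order was thus the same in both libraries. Cd244a, the partner of CD48 on natural killer cells, had 1 read in replicate 1 and 0 in replicate 2, and Cd2, the other partner, had 0 reads in both. These 3 SLAM-type genes share a 332 kb stretch of chromosome 1 (171559193 to 171890718), with Cd48 and Cd84 expressed and Cd244a nearly silent.

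Genes of the T cell receptor complex were present in part. The complex needs CD3 gamma, delta and epsilon chains and the CD3 zeta chain encoded by Cd247. Cd247 was at 9.64 and 17.7 TPM and Cd3g at 1.41 and 1.66 TPM. Cd3e was at 2.05 and 0.58 TPM and Cd3d at 0.81 and 0.06 TPM, both higher in replicate 1. The co-receptor genes Cd8a and Cd8b1 had 0 reads, and Cd4 had 1 read in each library (0.05 and 0.13 TPM). Cd3g, Cd3d and Cd3e lie within 40.1 kb on chromosome 9, of which Cd3g passed 1 TPM in both libraries.

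The Cd247 value shares sequence with another gene. Its leading transcript has 782 bases (59.4%) in common with exons of Pou2f1 on the opposite strand, and Pou2f1, a POU-domain transcription factor, was at 8.72 and 11.6 TPM. Cd72, an inhibitory co-receptor of B cells, was at 1.81 and 1.87 TPM and shares 1423 bases (55.1%) with exons of Tesk1, which was at 6.58 and 23.4 TPM. No source used here says that counting used strand, and without it reads from overlapping strands cannot be told apart. Pou2f1 reads could enter Cd247 and Tesk1 reads could enter Cd72. Among the other expressed genes measured, overlaps covered at most 17.8% of the leading transcript as drawn in GENCODE M21 (Cd9). Those models can differ from the transcripts that were counted. For Cd46 the 17.2% refers to a model of 6288 bases, whereas the deposited transcript has 1876 bases. The leading transcript of Cd37 found no match in the annotation, and its overlap was not measured.

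B cell receptor components and modulators stayed low. Cd72 alone passed 1 TPM in both libraries. Cd22, a sialic acid binding inhibitor, was at 0.69 and 1.25 TPM and Cd180, a Toll-like receptor relative, at 1.30 and 0.88 TPM. Their replicates lie on opposite sides of 1 TPM. The posterior means were above 1 TPM in both libraries, at 1.58 and 2.8 TPM for Cd22 and 1.55 and 1.31 TPM for Cd180. Those of Cd79a and Cd79b were below 1 TPM in both. The signalling chains Cd79a and Cd79b were at 0.29 and 0.31 TPM and at 0.72 and 0.25 TPM.

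Among genes of antigen presentation and co-stimulatory ligands, 3 of 9 were expressed in both libraries. Cd74, the invariant chain that guides MHC class II molecules, was at 12.5 and 10.5 TPM. Cd274, which encodes the checkpoint ligand PD-L1, was at 2.87 and 2.61 TPM, and Cd276 was at 1.30 and 1.44 TPM. All 3 were close between libraries. Cd86 and Cd80, the classical ligands of CD28, were at 0.55 and 0.24 TPM and at 0.22 and 0.13 TPM. Cd40, a receptor of antigen-presenting cells, was at 0.04 and 0.33 TPM. Cd1d1, which presents lipids, was at 0.09 and 1.22 TPM, and in replicate 2 a retained-intron transcript of 555 bases held 87.3% of its expression. Cd70 and Cd83 each had 1 read in replicate 1 and 0 in replicate 2.

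Lymphocyte co-stimulation and adhesion receptors had 1 expressed gene of 10. Cd7, an early T and natural killer cell antigen, was at 1.52 and 3 TPM. Cd27, a TNF receptor family member, was at 0.18 and 1.03 TPM, with the reads placed on retained-intron transcripts in both libraries. Cd5 was at 0.04 TPM in both, and Cd160 at 0.09 and 0.11 TPM. Cd28, Cd69 and Cd226 had 2 reads or fewer per library, and Cd6, Cd40lg and Cd96 had 0.

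Myeloid genes were mostly silent. Cd68, a lysosomal glycoprotein used as a macrophage marker but present in other cells too, was at 3.17 and 5.66 TPM and was the single expressed gene of 8. The endotoxin co-receptor Cd14, the siglec Cd33, Cd101, Cd163l1 and Cd5l had 0 reads in both libraries. Cd163, the hemoglobin scavenger receptor, was at 0 and 0.05 TPM and Cd177, a neutrophil antigen, at 0.06 and 0.14 TPM.

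The families of myeloid receptors that sit in gene clusters were mostly at 0. In the CD300 family of paired activating and inhibitory receptors, 8 of 12 genes had 0 reads. Cd300lg, the endothelial member outside the cluster, was at 1.73 and 1.42 TPM, whereas Cd300a, Cd300lf and Cd300ld ranged from 0.03 to 0.27 TPM. The cluster on chromosome 11 (114890041 to 115133992) holds 11 of them, 0 at 1 TPM in both libraries. Of 9 C-type lectin receptors 7 had 0 reads. Cd209c was at 0.19 and 1.13 TPM from 2 and 9 reads, and Cd302 was at 0.92 and 0.72 TPM from 27 and 12 reads. The 7 Cd209 genes of chromosome 8 span 394 kb, and 6 of them were at 0. Langerin (Cd207) was also at 0. The inhibitory ligand gene Cd200 and its receptor genes Cd200r2 and Cd200r3 had 0 estimated reads. The posterior means were nonetheless 0.82 and 1.4 TPM for Cd200 and 0.36 and 0.61 TPM for Cd200r3, so the level of both depends on the estimate. Cd200r1 was at 0.21 and 0.40 TPM and Cd200r4 at 0.08 and 0.26 TPM. Several of these genes are near-identical copies: Cd300ld3, Cd300ld4 and Cd300ld5 match one another at 98.8% or more over 852 bases, and Cd209f and Cd209g at 99.6% over 503 bases. Each of these named copies had 0 estimated reads in both libraries, so no counted reads were split among them. No source used here says whether reads that fit several copies were left out, so their 0 values are uncertain.

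**Figure D3:**
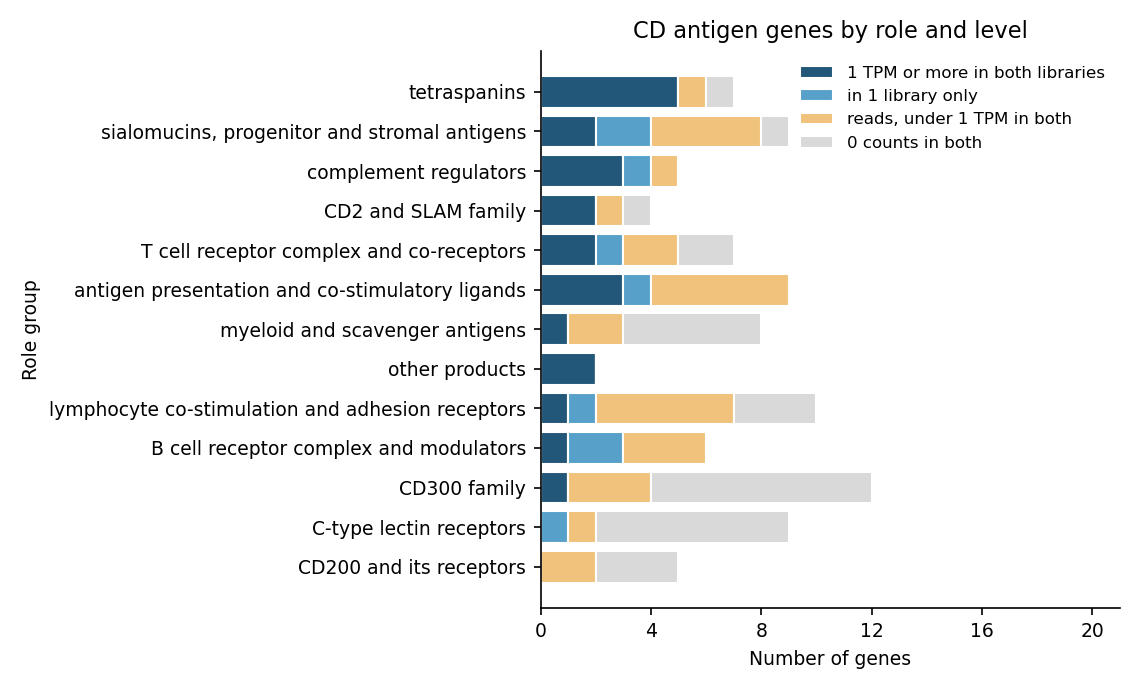
Number of CD genes in each of 13 role groups (bars) by level, in 4 classes from 1 TPM or more in both libraries to 0 counts in both. Tetraspanins (5 of 7 genes), complement regulators (3 of 5) and other products (2 of 2) have most of their genes in the highest class. CD300 (8 of 12) and C-type lectin receptors (7 of 9) have most in the class at 0. The same holds for myeloid and scavenger antigens (5 of 8) and for CD200 and its receptors (3 of 5).

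The pair of genes outside these roles were both low. Cd320, the transcobalamin receptor for vitamin B12 uptake, was at 1.13 TPM in both libraries, just above the threshold. Cd3eap was at 3.34 and 4.69 TPM. With neither Cd3eap nor Cd5l counted, 22 genes were at 1 TPM or more in both.

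Ordered by mean level, the 23 expressed genes form 22 neighbouring pairs, and the ranges over the 2 libraries overlap in 18 of them. Gaps followed Cd81, Cd3eap, Cd72 and Cd276. From Cd82 down to Cd3eap each gene overlaps the next, so neighbours there are not ordered by these data. Genes farther apart are: both values of Cd82 lie above both values of Cd247.

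Markers of other blood lineages were read as lists. Of 10 T cell markers 2 passed 1 TPM in both libraries (Cd3g and Cd247), 3 were at 0 reads in both, and the list summed to 14.0 and 20.2 TPM. Cd247, with the Pou2f1 overlap, made most of that sum. Of 6 B cell markers 2 passed (Cd72 and Cd37), and the list summed to 19.3 and 41.2 TPM, mostly Cd37. Cd72 has the Tesk1 overlap. The leading Cd37 transcript, with 62.1% and 37.5% of that gene's expression, found no match in the annotation. Of 8 monocyte, macrophage and dendritic markers 1 passed (Cd68), 5 were at 0, and the list summed to 3.72 and 5.95 TPM. Of the 4 genes listed as stem and progenitor markers 1 passed (Cd48). Cd27 was at 0.18 and 1.03 TPM, and Cd34 and Cd93 were near 0. None of the 4 natural killer markers passed, and the highest was Cd160. The erythroid list summed to 20957.6 and 35665.2 TPM. Fewer cells of a type and less RNA per cell cannot be told apart in bulk RNA.

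**Figure D4:**
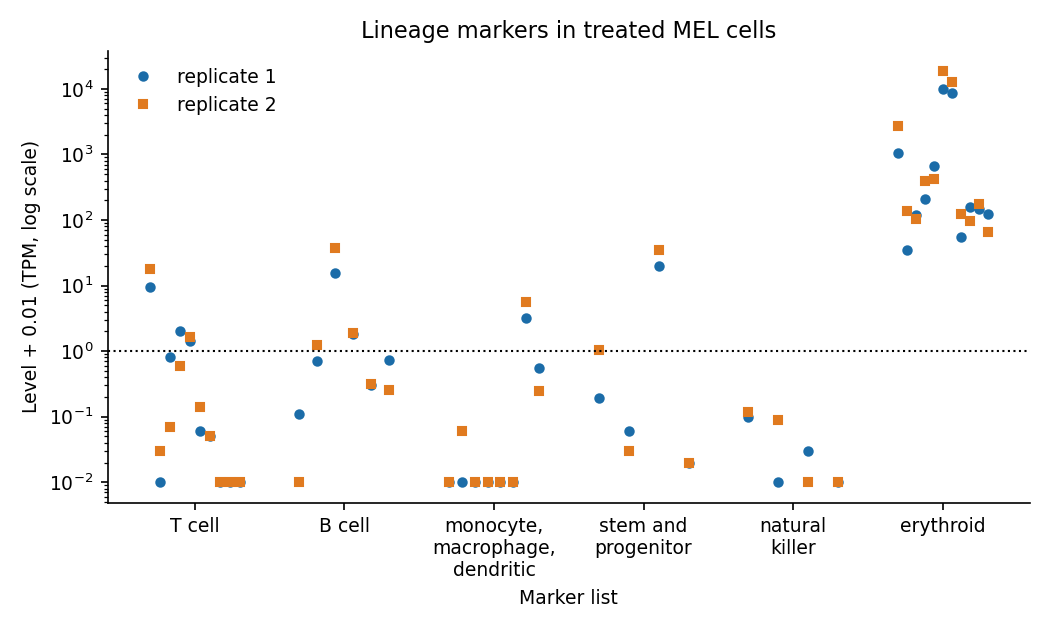
Level of each marker gene plus 0.01 TPM on a log axis, by lineage list, with replicate 1 as circles, replicate 2 as squares and a dotted line at 1 TPM. The 11 erythroid markers lie above 1 TPM in both libraries, whereas 5 of 8 monocyte, macrophage and dendritic markers have 0 reads in both.

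CD-numbered antigens whose symbols do not begin with Cd gave a second view of the surface. Of 70 such genes 35 (50%) reached 1 TPM in both libraries, 4 in 1 library, 24 stayed below and 7 were at 0, and their median was 1.60 TPM. Over all protein-coding genes 45.5% reached 1 TPM in both, 29.5% were at 0, and the median was 0.6 TPM. The list was compiled with erythroid antigens in it, so its share is not independent of the cell type. Among its highest genes were Bsg (basigin, 149 and 334 TPM), Itgb1 (integrin beta 1, 236 and 205), Slc4a1 (band 3, 148 and 178), Csf2rb (the common beta chain of cytokine receptors, 116 and 206) and Kel (94.3 and 175). Each of them was above Cd81 in both libraries. The pan-leukocyte antigen gene Ptprc (CD45) was at 9.88 and 4.95 TPM, and Kit, the stem cell factor receptor, at 0.10 and 0.01 TPM, both named after their values were seen. Among the genes at 0 were Icos, Ctla4, Klrb1c, Abcb1b, Vcam1 and Mme.

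Transcript tables show which form of each expressed gene was read. Of 23 genes 18 had the same leading transcript in both libraries, in 9 of them it held at least 90% of the gene's expression in both, and 22 leading transcripts are annotated protein-coding. The exception is Cd37, whose leading transcript found no match in the later annotation. Cd74, Cd274, Cd7, Cd59a, Cd300lg and Cd276 had 100% on 1 transcript in both libraries. The leading form differed for Cd81, Cd164, Cd84, Cd68 and Cd3g. For Cd164 a transcript of 2922 bases held 91.5% in replicate 1 and 40.5% in replicate 2, where one of 692 bases held 57.3%. For Cd81 a transcript of 586 bases held 63.2% and 43.2%, and one of 1533 bases held 35.3% and 55.4%. For Cd68 a transcript of 1230 bases held 46.9% and 100%. For Cd3g a transcript of 412 bases held 35.9% and 81.0%. In Cd81 the longer form held more of the expression in replicate 2, and in Cd164 and Cd3g the shorter form did.

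These splits bear on the TPM of a gene, since a short transcript turns the same reads into more TPM. Cd164 was higher in replicate 2 by TPM, but its estimated reads were 1647 and 888 and its scaled ratio of replicate 2 over replicate 1 was -0.26 on the log2 scale with TMM. That ratio was -0.0049 with total count scaling and 0.60 with the trend on GC removed. Cd3g likewise was at 1.41 and 1.66 TPM with a scaled ratio of -0.57, and of -0.34 with total count scaling and -0.39 with the GC trend removed. For Cd164 the direction of the replicate difference thus depends on the scaling as well as on the quantity.

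Replicate ratios were taken from the estimated reads, for the 35 CD genes with a mean of at least 10. With TMM scaling, 3 were at least 2-fold higher in replicate 2 and 8 at least 2-fold higher in replicate 1, where 14.1% and 14.6% of protein-coding genes passed in those directions. With 1 library against 1 there is no replicate check and no p-value. Scaling by total count moves the median ratio of all protein-coding genes by 0.25 on the log2 scale and gives 6 and 7 CD genes in place of 3 and 8. The median ratio was -0.06 for the CD genes and 0.04 for all protein-coding genes.

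Higher in replicate 2 were Cd55b, Cd151 and Cd248. Cd55b had 0 and 23.16 reads, and no fold is given because the split with Cd55 is uncertain. Cd151 had a log2 ratio of 1.05 and Cd248 of 1.03, followed by Cd22 at 0.93 and Cd68 at 0.79, both under 2-fold. With the GC trend removed, as described next, Cd248 was at -0.08 and Cd151 at 0.58, so neither stayed past 2-fold and Cd248 turned in direction. Higher in replicate 1 were Cd3d, Cd52, Cd86, Cd3e and Cd79b, then Cd55, Cd59a and Cd84. Cd3d had 25 and 1 reads, a log2 ratio of -3.24 with an exact 95% counting interval of -9.37 to -1.40. Cd52 had 20 and 1 reads and a ratio of -2.94 (-9.06 to -1.04), and Cd86 had 23 and 3 reads and -2.04 (-4.68 to -0.58). The intervals are wide, and these genes were taken for their large ratios, so the intervals are a description of counting error and not a test. Cd3e had 69 and 11 reads and -1.94 (-3.08 to -1.09). Cd55 had the narrowest interval of the 8, at -1.39 (-1.52 to -1.26).

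Transcript GC content moved with the replicate ratio. Across 11335 protein-coding genes the Spearman correlation of the ratio with GC content was 0.707, and across 34 CD genes it was 0.286. Both describe genes read in the same 1 pair of libraries, so the genes are not independent. With the trend on GC removed, 3 CD genes were at least 2-fold higher in replicate 2 and 6 in replicate 1, where 5.37% and 6.93% of protein-coding genes passed. The 3 were Cd55b, Cd46 and Cd48, so Cd55b alone was in both sets of 3. The 6 were Cd3d, Cd52, Cd86, Cd3e, Cd79b and Cd74. The ratios of Cd55, Cd59a and Cd84, of 40.6%, 44.4% and 43.4% GC, went from -1.39, -1.34 and -1.05 to -0.34, -0.62 and -0.24. That of Cd3e was -1.94 before and -1.97 after. Cd46 and Cd48, at 0.54 and 0.64 before, reached 1.72 and 1.60, and Cd74, of 56.0% GC, reached -1.10. The part of GC content in these differences was not tested further.

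**Figure D5:**
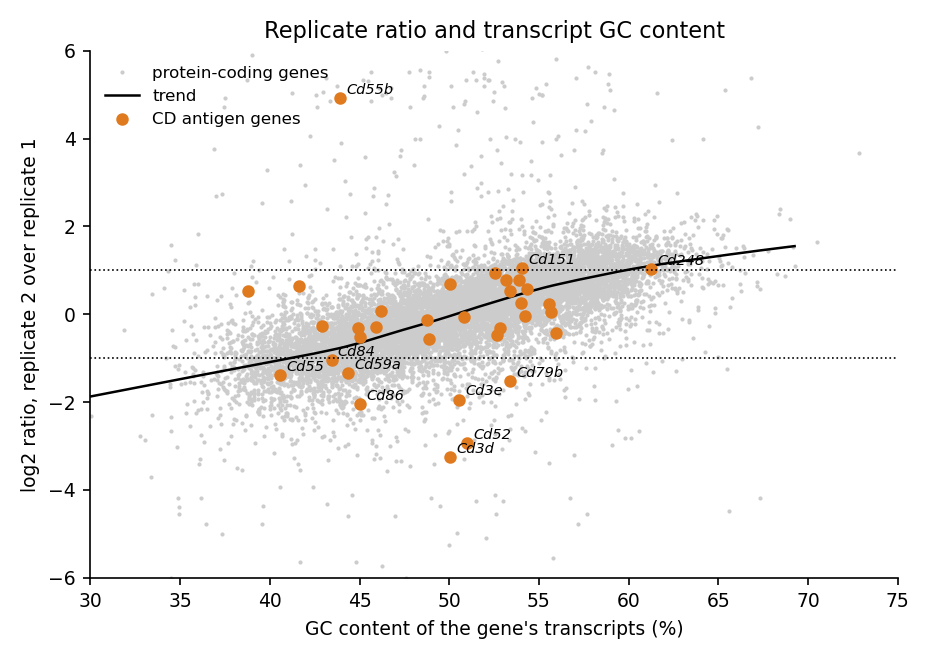
Log2 ratio of replicate 2 over replicate 1 against transcript GC content in percent, for protein-coding genes (grey) and CD genes (orange) with a mean of at least 10 reads, with the trend over genes of at least 100 reads (line) and dotted lines at 2-fold. Grey points beyond the axis limits are not drawn. Cd55, Cd59a and Cd84 lie close to the trend, and Cd3d, Cd52 and Cd3e lie below it.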

How the data were processed

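PolyA RNA of DMSO-treated MEL cells was measured in 2 libraries of 1 group. The authors deposited a gene and a transcript table per library on mm10. Per the submitters' file lists the annotation was GENCODE M4, and no source used here names the program or aligner. Per the file headers the deposited units were expected counts (estimated reads, unscaled), TPM and FPKM. Posterior mean TPM and its credibility bounds are deposited as a signal of unstated level, and the percent of a gene's expression per transcript is in the deposited transcript tables. Levels are TPM, and ratios used expected counts rounded to whole numbers.

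Symbols, classes and coordinates came from GENCODE M21, which matched 42462 of 43346 Ensembl genes. Rows that name no gene held 0.0296% and 0.0465% of reads and stayed out of count scaling. The gene rule, the role groups and the other lists were chosen with earlier results of these data known. Every gene at 1 TPM or more in at least 1 library is named, with lineage markers, the 10 below that with the most reads, and the 5 largest ratios per direction. A few genes that this rule would name are not reported here.

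Ratios used edgeR 4.0.16 (TMM, prior count 1) in R 4.3.3, with DESeq2 1.42.0 size factors as an alternative. The step was tested on simulated counts of all 43346 genes for replicate 2 against replicate 1. Of 100 genes changed 4-fold in each direction, 96 and 98 passed 2-fold (higher and lower). The changed genes were drawn from those with a mean of at least 100 counts, and no GC trend was simulated. The result therefore does not cover CD genes of fewer counts, such as Cd3d with 25 and 1 reads. The GC trend was a lowess (span 0.3) with statsmodels 0.14.6. Near-identical copies were sought with BLAST 2.17.0 (at least 95% identity over at least 300 bases). Other steps used Python 3.11.15, pandas 2.3.3, numpy 2.4.6, scipy 1.17.1 and matplotlib 3.10.9. Promoter windows were read from the RefSeq table, and 25 genes without an entry were not analysed there. Alternatives covered thresholds, filters, scaling, posterior means and each library alone.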

Additional observations from a re-analysis of the deposited data

How the results depend on the processing

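Of 35 alternative values for the counts and the median, 25 stayed within 1.5 times the count or within the spread, and 10 moved. The 23 genes at 1 TPM in both libraries became 40 when a lower credibility bound above 0.1 TPM was asked in both, and 26 to 29 with either library left out. The 31 genes at 0 became 35 to 38 with 1 library. Leaving out a library cannot lower either count, since the condition then has to hold in 1 library only. The median of 0.1 TPM was 0.08 in each library alone, 0.255 by posterior means and 0.101 by TPM over Ensembl genes alone. Genes at least 2-fold higher in replicate 2 (3) numbered 6 with total count scaling, 11 with no filter on low counts and 1 at a mean of 50 counts. Those higher in replicate 1 (8) numbered 13 with no filter and 3 at 50 counts. For the median the spread was 0, because both libraries gave 0.08, so every value other than 0.1 TPM was bound to count as moved. With no filter or a filter of 50 the number of genes tested changes by construction. The cause of the other moves was not tested. For single genes, leaving out a library cannot show a move, since each of 2 values always lies within 1 SD of their mean. Of 32 levels set against their posterior means, 27 stayed within the spread and 5 moved (Cd72 to 2.72, Cd3g to 1.89, Cd320 to 1.2, Cd180 to 1.43 and Cd22 to 2.19 TPM). An alternative added after the data were seen left out genes sharing over 10% of the leading transcript, as drawn in GENCODE M21, with another gene. It left 17 expressed genes. Depth limits the genes under 10 reads, whose place below 1 TPM rests on few counts. No paired analysis was possible because there is 1 group and no contrast between conditions.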
